A study of Homo sapiens with 4 samples.

Results

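The genes described here were 10 protein-coding genes that carry growth factor, receptor and cytoskeletal signals, out of 20163 protein-coding genes annotated on the main human chromosomes: AGTR1, VEGFA, IGF2, RRAS, RRAS2, RAB26, PAK1, CAMK2B, NGEF and VANGL1. They were chosen by name from genes that the study names, several of them as Star-PAP targets detected in this same experiment. They are therefore not a neutral sample to set beside all genes. Every peak summit inside each gene or within 5000 bp on either side was taken from each of the 3 deposited peak lists. Gene bounds came from GENCODE on hg19. The 10 genes and their flanks cover 763.6 kb.

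The summits came from HITS-CLIP, in which ultraviolet light crosslinks proteins to the RNA they touch, an antibody pulls the protein down, and the attached RNA fragments are sequenced. HEK293 cells, an established line of human embryonic kidney origin, were irradiated at 400 mJ/cm2, and the antibody against Star-PAP was applied to control cells (the library is labelled only as the Star-PAP pulldown, with no siRNA named), to cells given an siRNA against Star-PAP (siStar-PAP) and to cells given an siRNA against RBM10 (siRBM10). Cells were harvested 48 h after siRNA, and 1 more library, pulled down with non-specific IgG, served as the reference for peak calling. Each condition was 1 library, so no difference between conditions has a replicate check and no test between conditions was made. Intervals are exact at the 95% level and cover counting error only. The lists give peaks and not RNA levels, so neither the depletions nor the abundance of any transcript was checked here, and fewer peaks on a gene cannot be told apart from less of its RNA.

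Star-PAP is a nuclear poly(A) polymerase, an enzyme that adds the poly(A) tail to a chosen set of messenger RNAs after their 3′ end has been cut, and RBM10 is an RNA-binding protein that works in splicing and associates with Star-PAP. A poly(A) polymerase acts at the end of the 3′-UTR, downstream of the poly(A) signal, most often the hexamer AATAAA. The 10 genes sit at successive steps of signalling: a cell surface receptor (AGTR1), secreted growth factors (VEGFA, IGF2), small GTPases that switch between an active and an inactive state (RRAS, RRAS2, RAB26), kinases (PAK1, CAMK2B), an exchange factor that activates small GTPases (NGEF) and a membrane protein of planar cell polarity (VANGL1).

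The lists differed in size and in the make-up of their scores, the score being the −log10 of the MACS2 p-value. The control list held 411400 summits, the siStar-PAP list 325797 and the siRBM10 list 294402. The commonest score was 1.33 in the control, where 63.2% of all summits had it, against 2.92 (22.8%) in siStar-PAP and 3.25 (22.7%) in siRBM10. Summits with p of at most 0.01 made up 33.6% of the control list, 84.6% of the siStar-PAP list and 90.5% of the siRBM10 list.

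On the 10 genes the order of the lists was different. The control had 95 summits (76.9 to 116), siStar-PAP had 150 (127 to 176) and siRBM10 had 108 (88.6 to 130). At the mean density of the same chromosomes these windows would hold 108.6, 84.7 and 76.0 summits, so the control lay at 0.874 of that number (0.707 to 1.07), siStar-PAP at 1.77 (1.5 to 2.08) and siRBM10 at 1.42 (1.17 to 1.71). The ratio to the control was 1.58 (1.21 to 2.06) after Star-PAP depletion, with the whole list at 0.792 of the control. It was 1.137 (0.855 to 1.51) after RBM10 depletion, with the whole list at 0.716. The whole lists and the chromosome means also count summits outside genes. Of all protein-coding genes with their flanks, 60.7% had more siStar-PAP than control summits and 57.2% more siRBM10. A higher count than in the control was therefore not particular to the 10 genes. Among summits with p of at most 0.01 the counts were 47, 98 and 81, the ratios 2.09 (1.46 to 3.02) and 1.72 (1.19 to 2.52), and the whole lists 1.997 and 1.93. Above the commonest score of each list the order turned, with 50, 22 and 17 summits, so that siStar-PAP stood at 0.44 of the control and siRBM10 at 0.34, with the whole lists at 0.25 and 0.308. The p limit removes the summits at the commonest score from the control list alone, and the second limit removes a different share of each list, so neither puts the libraries on 1 scale. Counts at p of at most 0.01 are given below for each gene. Where control summits have the commonest score, the limit removes them but keeps depletion summits at theirs. A changed order there does not show that weak peaks set it.

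**Figure D1:**
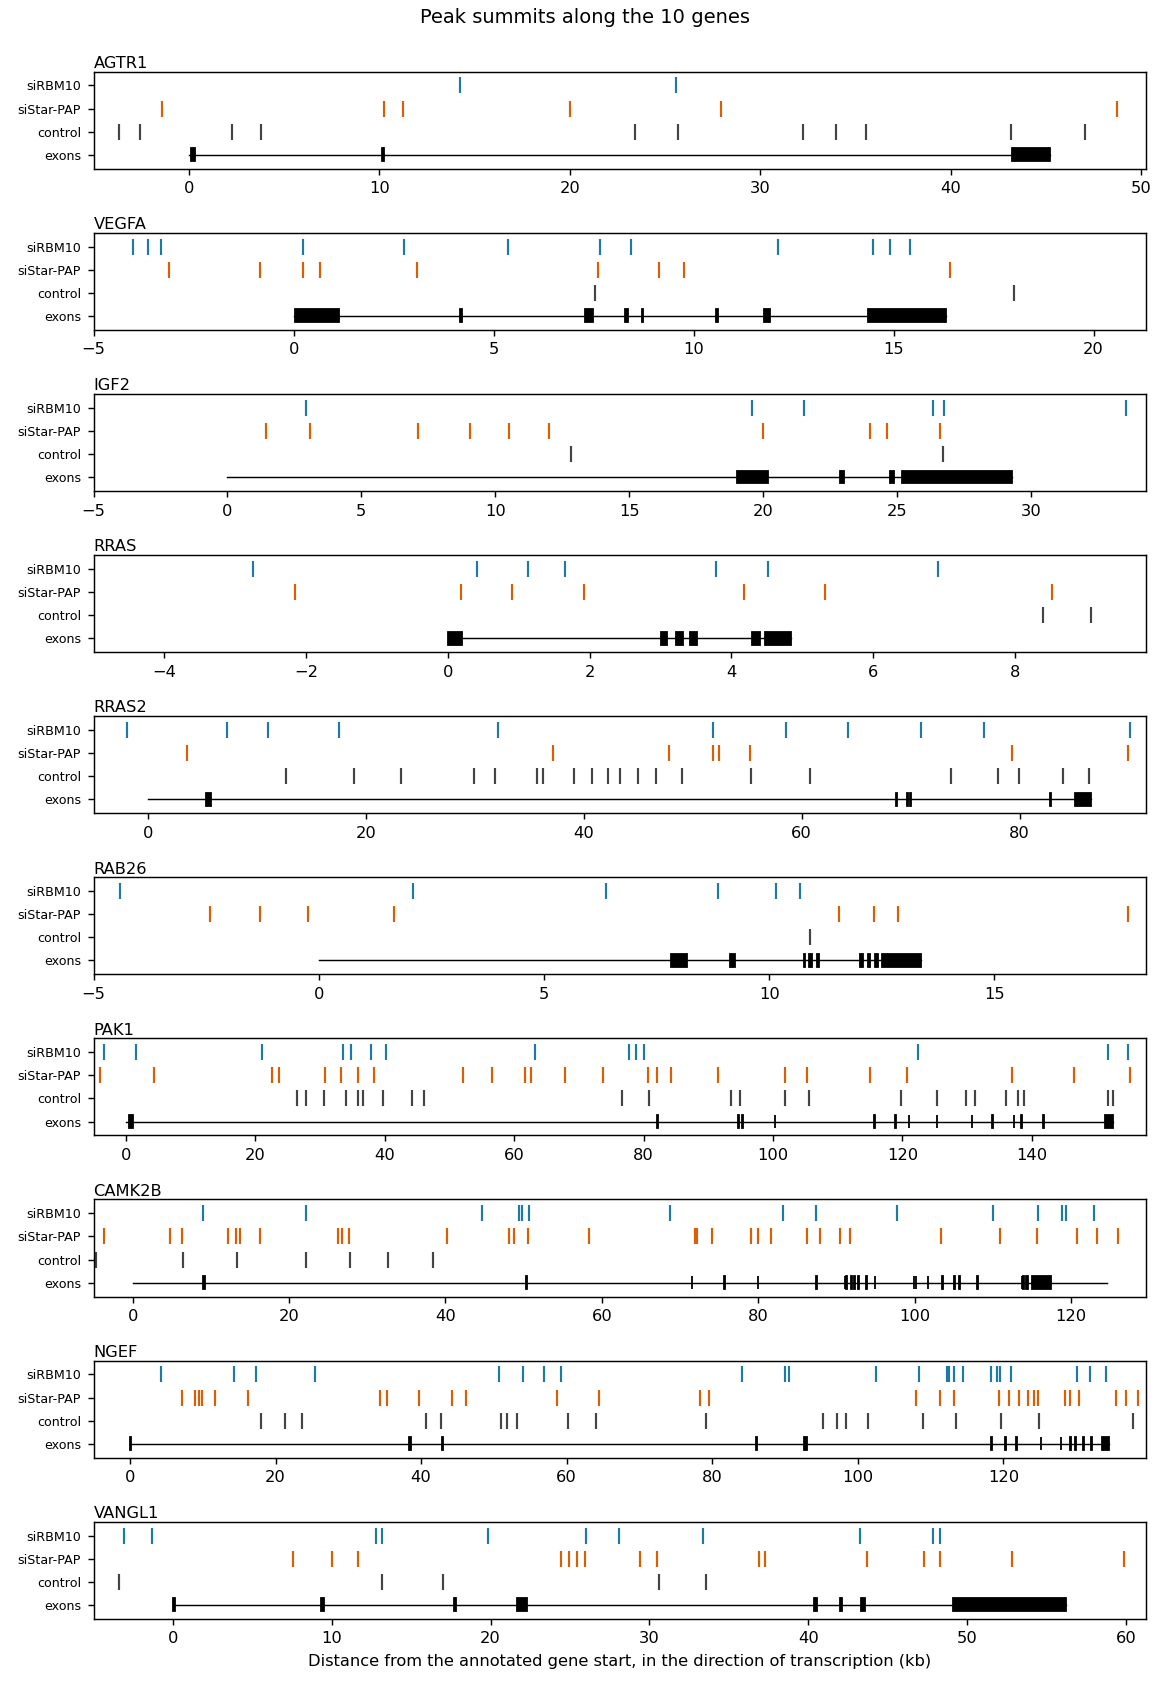
Ticks mark each peak summit of the control, siStar-PAP and siRBM10 libraries along the 10 genes, in kb from the annotated gene start in the direction of transcription, with 5 kb flanks; black boxes are exons of the canonical transcript. Most ticks lie in introns: 79 of 86 in-gene summits of the control, 113 of 129 of siStar-PAP and 77 of 95 of siRBM10.

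Introns held 91.9% of the in-gene summits in the control, 87.6% in siStar-PAP and 81.1% in siRBM10. The control had 4 summits in 3′-UTRs, 2 in coding sequence (CDS) and none in a 5′-UTR. siStar-PAP had 3 in 3′-UTRs, 4 in CDS and 3 in 5′-UTRs, and siRBM10 had 8, 2 and 3. The remaining exonic summits, 1 in the control, 6 in siStar-PAP and 5 in siRBM10, lay only in exons of transcripts not annotated as protein-coding.

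An exon of any annotated transcript held a control summit in 5 of the 10 genes (VEGFA, IGF2, RRAS2, RAB26 and PAK1), against 35.4% of all protein-coding genes. A siStar-PAP summit lay in an exon of 7 (VEGFA, IGF2, RRAS, RAB26, CAMK2B, NGEF and VANGL1), against 58.3% of all genes, and a siRBM10 summit in an exon of 6 (VEGFA, IGF2, RRAS, PAK1, CAMK2B and NGEF), against 55.8%. An exonic control summit with no exonic siStar-PAP summit was found in 2 genes, RRAS2 and PAK1, against 11.4% of all genes. An exonic control summit with no exonic siRBM10 summit was found in RRAS2 and RAB26, against 12.4%. With 10 genes these shares lie near those of all genes, and with summits anywhere in the gene in place of exons no gene (0) had a control summit without one of either depletion library. A summit in the gene or its flanks was present for all 10 in each library, against 82.5% of all genes in the control, 93.9% in siStar-PAP and 93.3% in siRBM10.

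**Figure D2:**
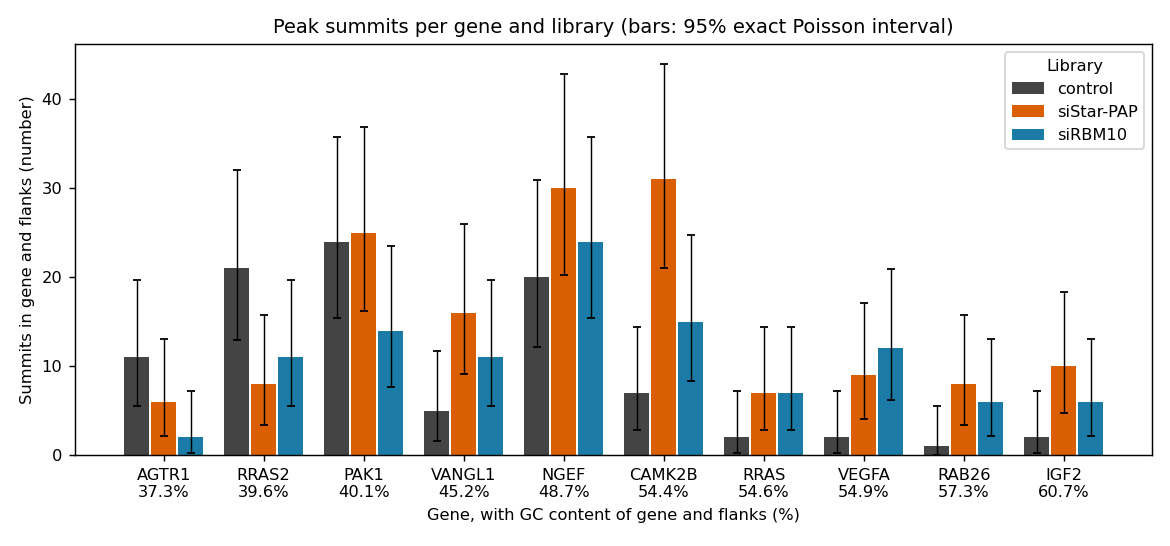
Bars give the number of summits in each gene with its 5 kb flanks, per library, with 95% exact Poisson intervals; genes are ordered by the GC content of the same window. AGTR1 and RRAS2, at the AT-rich end, have the most summits in the control, while VANGL1, NGEF, CAMK2B, RRAS, VEGFA, RAB26 and IGF2 have fewer in the control than after either depletion.

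AGTR1 (ENSG00000144891, chromosome 3, 148415571 to 148460795, plus strand), which encodes the type 1 receptor for angiotensin II and raises blood pressure and cell growth, had the control as its highest library. It had 11 summits in the control, 6 in siStar-PAP and 2 in siRBM10. The ratio to the control was 0.545 (0.166 to 1.61) for siStar-PAP and 0.182 (0.020 to 0.833) for siRBM10. Of the 11 control summits 10 had the commonest score of 1.33, and at p of at most 0.01 the counts were 1, 5 and 2. That limit removed those 10 but kept the 2 siStar-PAP and 1 siRBM10 summits at the commonest scores of their lists. The counts at that limit are therefore not on 1 scale. No library had an exonic summit on AGTR1. The closest pair lay in the second intron, with a control summit at 148441272 (score 1.33) and a siRBM10 summit 113 bp away at 148441159 (score 5.20).

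VEGFA, the main growth factor for blood vessels (chromosome 6, 43737921 to 43754224, plus strand), had 2 summits in the control, 9 in siStar-PAP and 12 in siRBM10. The ratio was 4.5 (0.931 to 42.8) for siStar-PAP and 6.0 (1.34 to 55.2) for siRBM10. At p of at most 0.01 the counts were 2, 2 and 7, so the excess of siStar-PAP over the control was in peaks with p above 0.01. The only in-gene control summit, at 43745465 (score 2.62), lay in the third intron of the canonical transcript, 63 bp from a splice site. That position is in an exon of a transcript not annotated as protein-coding. siStar-PAP had a summit at 43745525 (score 1.73) and siRBM10 at 43745590 (score 1.85), so all 3 libraries fell within 125 bp. Both depletion libraries also had a summit in the 5′-UTR, 6 bp apart, at 43738152 (score 3.06) and 43738158 (score 1.44), where the control had none within 7307 bp, and siStar-PAP had a CDS summit in the same exon at 43738577 (score 1.67). The VEGFA 3′-UTR held 3 summits, all from siRBM10, at 43752409, 43752837 and 43753326, and siStar-PAP had one 96 bp past the gene's 3′ end. The highest score on the gene was 8.62, in siRBM10 at 43746351, 78 bp from a splice site of the fourth intron. Exons of transcripts not annotated as protein-coding held 3 more siStar-PAP summits, at 43741008, 43747056 and 43747690, and 2 more of siRBM10, at 43743269 and 43750026.

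The 2 VEGFA 5′-UTR summits are shown because the control had no summit there. Here and below a sequence is the 29 bases of hg19 centred on the summit, with 14 on each side, written 5′ to 3′ on the strand of the gene, and capitals mark ATA, the AUA triplet of the RNA. The lists give no strand, so the strand of the RNA itself is not known. Neither window has an ATA, and both are AT-rich, at 20.7% GC, in a gene window of 54.9% GC.
VEGFA siStar-PAP, chr6:43738138-43738166: aaactgtattgtttctcgttttaatttat
VEGFA siRBM10, chr6:43738144-43738172: tattgtttctcgttttaatttatttttgc

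IGF2, a growth factor of fetal life whose gene is imprinted (chromosome 11, 2150342 to 2179621, minus strand), had 2 summits in the control, 10 in siStar-PAP and 6 in siRBM10. The ratio was 5.0 (1.07 to 46.9) for siStar-PAP and 3.0 (0.536 to 30.4) for siRBM10. The IGF2 3′-UTR held the highest-scoring summit of the 10 genes in each library: the control had it at 2152925 (score 8.88), siStar-PAP at 2153028 (score 11.98) and siRBM10 at 2152889 (score 15.18). siRBM10 had another at 2153277 (score 1.85), and together they spanned 388 bp. The same 3′-UTR is also part of an overlapping protein-coding gene model without a symbol. In the 5′-UTRs siStar-PAP had summits at 2159617 and 2170568 and siRBM10 at 2160059, where INS-IGF2, a readthrough with the insulin gene, overlaps, and the control had none. Another 2 siStar-PAP summits, at 2167612 and 2169108, lay in exons of the antisense gene IGF2-AS. The counts on IGF2 at p of at most 0.01 were 2, 5 and 4.

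The sequences under these IGF2 3′-UTR summits are shown because this is the only exonic site of a coding transcript where all 3 libraries met. They were made up largely of the dinucleotide CA, counted on the strand of the gene: it occurred 12 times in the control window, 11 times in the siStar-PAP window and 12 and 9 times in the siRBM10 windows. A CA count of at least 8 was found in 0.154% of all exonic control windows (17 of 11051), 0.0661% of those of siStar-PAP and 0.124% of those of siRBM10. None of the 4 windows holds an ATA.
IGF2 control, chr11:2152911-2152939: acacacagcacacacacaaacacagcaca
IGF2 siStar-PAP, chr11:2153014-2153042: tgcacacacagcacacacactagcacaca
IGF2 siRBM10, chr11:2152875-2152903: acacagcacacgcacacacagcacacaca
IGF2 siRBM10, second summit, chr11:2153263-2153291: cgagcacagcacacacacaaacgcacagc

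RRAS and RRAS2 encode closely related RAS-family GTPases that act in integrin and growth signalling, and they differed in which library was highest. RRAS (chromosome 19, 50138549 to 50143400, minus strand) had 2 summits in the control, both downstream of the gene, and 7 in each depletion library. The ratio was 3.5 (0.666 to 34.5) for both, and at p of at most 0.01 the counts were 1, 5 and 7. siStar-PAP had a CDS summit in the first exon of RRAS, at 50143218 (score 3.03), and siRBM10 had one in the last exon, at 50138882 (score 4.08), 333 bp from the 3′ end. Upstream of the gene each depletion library had 1 summit inside the neighbour SCAF1.

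RRAS2 (chromosome 11, 14299468 to 14386052, minus strand) had 21 summits in the control, 8 in siStar-PAP and 11 in siRBM10. The ratio was 0.381 (0.146 to 0.895) for siStar-PAP and 0.524 (0.228 to 1.136) for siRBM10. Of the control summits 11 had the commonest score, and at p of at most 0.01 the counts were 9, 8 and 11. The only exonic summit on RRAS2 was a control summit in the 3′-UTR at 14299719, 251 bp from the 3′ end, at the commonest score of 1.33. The nearest summits of siStar-PAP and siRBM10 were 3591 and 3835 bp away, both downstream of the gene.

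RAB26, a GTPase of secretory vesicles (chromosome 16, 2190804 to 2204166, plus strand), had 1 summit in the control, 8 in siStar-PAP and 6 in siRBM10. The ratio was 8.0 (1.07 to 355) for siStar-PAP and 6.0 (0.728 to 276) for siRBM10, intervals set by the single control summit. That summit lay in CDS of exon 4 at 2201703 (score 2.88), and siRBM10 had an intronic one 222 bp away at 2201481 (score 1.85). siStar-PAP had an exonic summit in the last exon, at 2203659 (score 2.73), and another at 2203122 in a transcript not annotated as protein-coding. The counts at p of at most 0.01 were 1, 5 and 3. Downstream, 1 siStar-PAP summit lay in the neighbour TRAF7.

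PAK1, a kinase that RAC and CDC42 switch on to remodel the cytoskeleton (chromosome 11, 77033062 to 77185680, minus strand), had 24 summits in the control, 25 in siStar-PAP and 14 in siRBM10. The ratio was 1.04 (0.571 to 1.91) for siStar-PAP and 0.583 (0.279 to 1.17) for siRBM10. Of the control summits 18 had the commonest score. At p of at most 0.01 the counts were 6, 24 and 14, which gives ratios of 4.0 (1.59 to 11.96) and 2.33 (0.842 to 7.41). That limit removed the 18 control summits at the commonest score but kept the 9 siStar-PAP and 7 siRBM10 summits at theirs. These ratios therefore do not put the libraries on 1 scale.

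PAK1 was the gene with the most exonic control summits. A control summit at 77033085 (score 1.33) lay in the 3′-UTR 23 bp from the 3′ end of the gene, on the base just before the poly(A) signal AATAAA. A second, at 77033892, fell on the same base as a siRBM10 summit, with scores of 1.33 and 3.25, and was the only exact match of a control summit with either depletion library. The last lay in CDS of exon 9 at 77060307 (score 2.28). siStar-PAP had no exonic summit on PAK1. In introns the control and siStar-PAP met 1 bp apart at 77083812 and 77083811, and a siStar-PAP summit with the highest PAK1 score, 6.60 at 77149780, lay 44 bp from a control summit.

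The 3 exonic control windows of PAK1 and that of RRAS2 are shown because these were the 2 genes with an exonic control summit and no exonic siStar-PAP summit. ATA was present in the RRAS2 window and in the PAK1 window at the 3′ end, where it is part of AATAAA. The hexamer, searched on the gene's strand, was found in 1.82% of all exonic control windows of the same length. Those include exons of transcripts not annotated as protein-coding. It was found in 1 of the 6 control windows from coding transcripts of the 10 genes.
PAK1 control, 3′ end, chr11:77033071-77033099: atttctatttctgtcaATAaaaggagatg
PAK1 control and siRBM10, 3′-UTR, chr11:77033878-77033906: ttctgtgactcaactgcccagacacctca
PAK1 control, CDS, chr11:77060293-77060321: ccgtgtacacagcaatggatgtggccaca
RRAS2 control, 3′-UTR, chr11:14299705-14299733: ttccctgctagATAttgattgttatttca

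CAMK2B encodes the beta subunit of the calcium- and calmodulin-dependent kinase II of neurons and muscle (chromosome 7, 44249618 to 44374176, minus strand). It had 7 summits in the control, 31 in siStar-PAP and 15 in siRBM10, and none in any library had the commonest score of its list. The ratio was 4.43 (1.91 to 11.9) for siStar-PAP and 2.14 (0.822 to 6.21) for siRBM10. At p of at most 0.01 the counts were 7, 12 and 5, so the siStar-PAP excess was mostly of peaks with p above 0.01. The siStar-PAP ratio at that limit was 1.71 (0.622 to 5.14). The control had no exonic summit; its highest score was 7.80 at 44346418 in the first intron, 107 bp from a siStar-PAP summit. Both depletion libraries had a 3′-UTR summit, at 44258514 and 44258411. Both also had one where exons of CAMK2B and of the neighbour YKT6 overlap, at 44250897 and 44251179. The siStar-PAP summits at 44253407, counted as intronic (score 3.71), and at 44248107, downstream, lay in YKT6 exons as well. The lists give no strand, so which gene these summits belong to is not known. siRBM10 also had a CDS summit in exon 6, at 44286785 (score 1.90), and a summit in a 5′-UTR, at 44365219 (score 3.27).

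NGEF, an exchange factor that activates small GTPases downstream of Eph receptors in neurons (chromosome 2, 233743411 to 233877966, minus strand), had 20 summits in the control, 30 in siStar-PAP and 24 in siRBM10. The ratios were 1.5 (0.824 to 2.79) and 1.2 (0.635 to 2.29), and both intervals included 1; at p of at most 0.01 the counts were 14, 19 and 17. siStar-PAP had a CDS summit in exon 11 at 233748754 (score 1.32) and siRBM10 a 3′-UTR summit at 233743806 (score 1.78), 395 bp from the 3′ end. All 3 libraries met at 2 intronic sites of NGEF, which spanned 233758270 to 233758856 and 233764409 to 233764771. The windows of the second site were rich in TG, which occurred 8 times in the control window, 6 times in that of siStar-PAP and 7 times in that of siRBM10. At the first site it occurred 2 times in the control window, 2 in that of siStar-PAP and 1 and 3 in those of siRBM10. How common such TG counts are among all windows was not counted. Downstream, 1 control and 3 siStar-PAP summits lay in the neighbour SNORC.

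VANGL1, a membrane protein that helps orient cells within a sheet (chromosome 1, 116184591 to 116240845, plus strand), had 5 summits in the control, 16 in siStar-PAP and 11 in siRBM10. The ratio was 3.2 (1.12 to 11.2) for siStar-PAP and 2.2 (0.705 to 8.08) for siRBM10. At p of at most 0.01 the counts were 4, 13 and 11, so the order of the libraries was kept. The only exonic summit was a siStar-PAP summit in the 3′-UTR at 116237418 (score 2.06), whose window held an ATA. A control and a siRBM10 summit lay 20 bp apart in an intron, and 1 siStar-PAP summit downstream lay in the neighbour CASQ2.

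Over the 10 genes, the count was higher than in the control in 8 genes after Star-PAP depletion, against 60.7% of all protein-coding genes, and in 7 after RBM10 depletion, against 57.2%. The interval of the ratio lay above 1 for 4 genes in siStar-PAP (IGF2, RAB26, CAMK2B and VANGL1), against 22.4% of all genes, and below 1 for RRAS2, against 8.32%. In siRBM10 it lay above 1 for VEGFA, against 16.6%, and below 1 for AGTR1, against 9.57%. Both ratios have the control library as denominator. At p of at most 0.01 the siStar-PAP interval lay above 1 for PAK1 (1.59 to 11.96) and VANGL1 (1.004 to 13.7). Every other siStar-PAP interval of a gene, and every siRBM10 one, included 1 at that limit, which does not put the libraries on 1 scale.

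The ratio followed the base composition of the gene, in the 10 genes and in all genes. The GC content of gene and flanks ran from 37.3% in AGTR1, 39.6% in RRAS2 and 40.1% in PAK1 to 57.3% in RAB26 and 60.7% in IGF2. Across the 10 genes its Spearman correlation with the log2 ratio, with 0.5 added to each count, was 0.89 for siStar-PAP and 0.88 for siRBM10, and across 20144 protein-coding genes it was 0.76 and 0.74. These are descriptions of genes that share the same 3 libraries. For all protein-coding genes the siStar-PAP to control ratio was 0.480 below 40% GC, 1.07 from 40 to 45%, 2.73 from 45 to 50%, 4.98 from 50 to 55% and 7.56 above 55%. The siRBM10 ratio over the same classes was 0.432, 0.993, 2.36, 3.99 and 6.17.

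**Figure D3:**
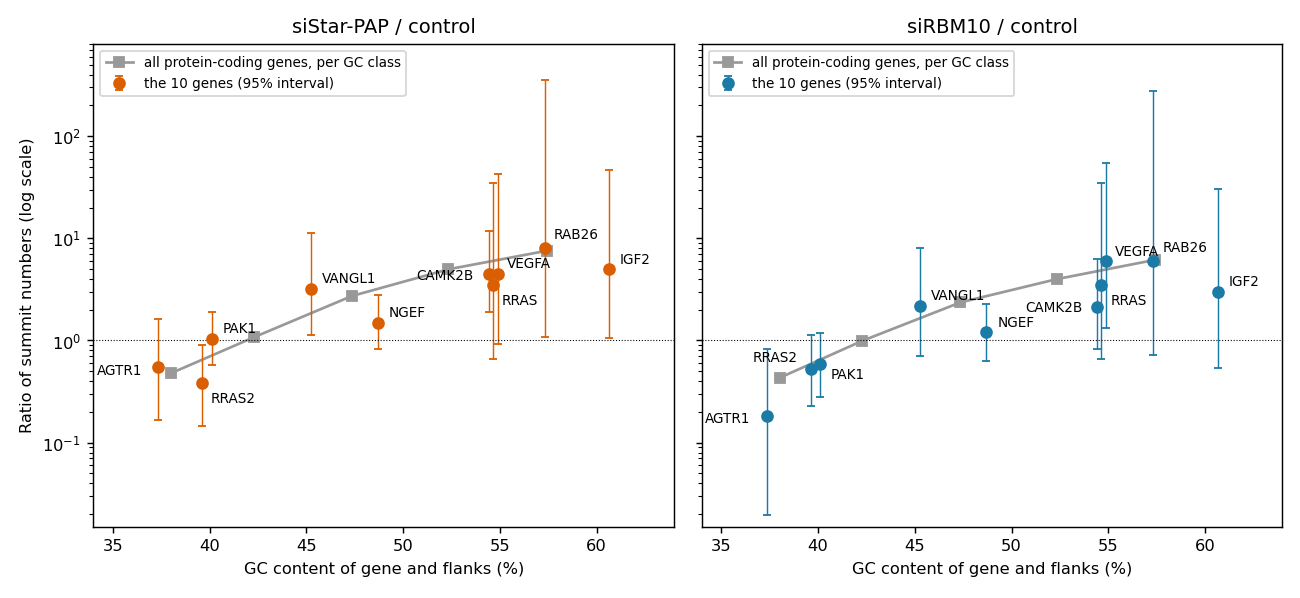
The ratio of summit numbers to the control (log scale) is plotted against the GC content of gene and flanks for the 10 genes, with 95% intervals, beside the ratio over all protein-coding genes in 5 classes of GC content (squares). The 10 genes rise with GC content along the line of all genes, from 0.545 for AGTR1 and 0.381 for RRAS2 to 8.0 for RAB26 and 5.0 for IGF2 in siStar-PAP.

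The commonest control score moved with GC content as well. Control summits at that score made up 70.8% of those on genes below 40% GC, 54.2%, 25.1% and 5.84% in the next classes and 1.62% above 55%. In the 10 genes, 44 of the 95 control summits had it: 10 on AGTR1, 11 on RRAS2, 18 on PAK1, 4 on NGEF and 1 on VANGL1, and none on the 5 genes above 50% GC. At p of at most 0.01 the correlation over the 10 genes was -0.07 for siStar-PAP and 0.35 for siRBM10, while over all genes the ratio still rose by class, from 1.69 to 4.10 for siStar-PAP and from 1.56 to 3.50 for siRBM10. The part that base composition has in the counts of single genes was not tested.

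Control summits on the 10 genes were set against the nearest summit after depletion, with a limit of 500 bp, which was also the fragment size given to MACS2. A siStar-PAP summit lay within it for 18 of 95 control summits, or 18.9% (11.6 to 28.3), against 10.9% of all control summits. A siRBM10 summit did for 13 of 95, or 13.7% (7.49 to 22.3), against 8.9%, and a summit of both for 4 of 95, against 1.59%. The median distance was 2007 bp to siStar-PAP (3779 bp for all control summits) and 3648 bp to siRBM10 (4202 bp). Of the siRBM10 summits on the 10 genes, 31 of 108, or 28.7% (20.4 to 38.2), had a siStar-PAP summit within 500 bp, against 18.2% of all siRBM10 summits. The windows held siStar-PAP summits at 1.77 and siRBM10 summits at 1.42 of the chromosome mean. Shares within a fixed distance depend on that density, which was not adjusted for. They therefore do not show that sites recur more often on these genes.

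**Figure D4:**
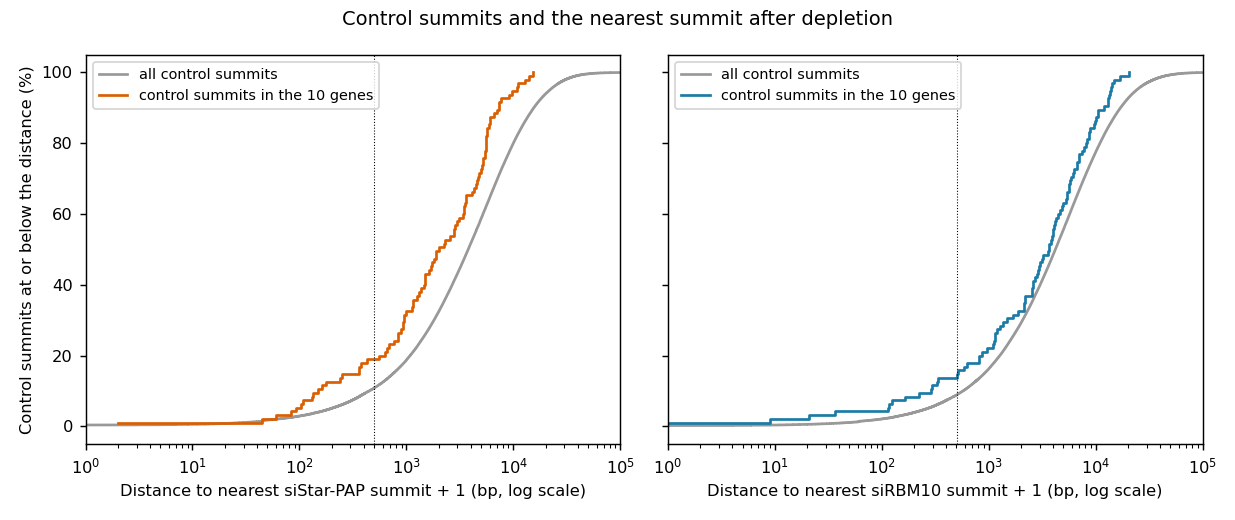
Curves give the percent of control summits whose nearest siStar-PAP (left) or siRBM10 (right) summit lies at or below the distance on the log axis, for the 10 genes and for all control summits; the dotted line is 500 bp. The 10 genes lie above all control summits at 500 bp, at 18.9% against 10.9% and 13.7% against 8.9%. The curves are not adjusted for the higher density of depletion summits in these windows.

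Grouped into sites by the same limit, all 3 libraries met at 4 sites, in VEGFA, IGF2 and NGEF. The control met only siStar-PAP at 14 sites in 6 genes and only siRBM10 at 9 sites in 7 genes. Sites of both depletion libraries without the control numbered 23, in 9 genes. The same grouping was not made for all genes, so these numbers have no general share beside them.

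At the 3′ end of the canonical transcript, where a poly(A) polymerase acts, each library had a summit within 500 bp in 2 of the 10 genes. In the control these were PAK1 (23 bp) and RRAS2 (251 bp), in siStar-PAP VEGFA (96 bp) and RRAS (474 bp), and in siRBM10 RRAS (333 bp) and NGEF (395 bp). Over 19540 protein-coding genes the share was 8.18% in the control, 17.2% in siStar-PAP and 15.5% in siRBM10. The largest distance was 13960 bp, for the control on CAMK2B, and IGF2 had all 3 libraries between 2542 and 2681 bp. With the 3′ ends of all annotated coding transcripts the libraries were no longer equal. The control then had a summit within 500 bp in 3 genes (IGF2, RRAS2 and PAK1), siStar-PAP in 5 (VEGFA, IGF2, RRAS, RAB26 and CAMK2B) and siRBM10 in 6 (VEGFA, IGF2, RRAS, PAK1, CAMK2B and NGEF), against 13.98%, 26.7% and 24.4% of 19726 genes. The closest of these were 23 bp for the control on PAK1, 96 bp for siStar-PAP on VEGFA and 14 bp for siRBM10 on VEGFA.

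**Figure D5:**
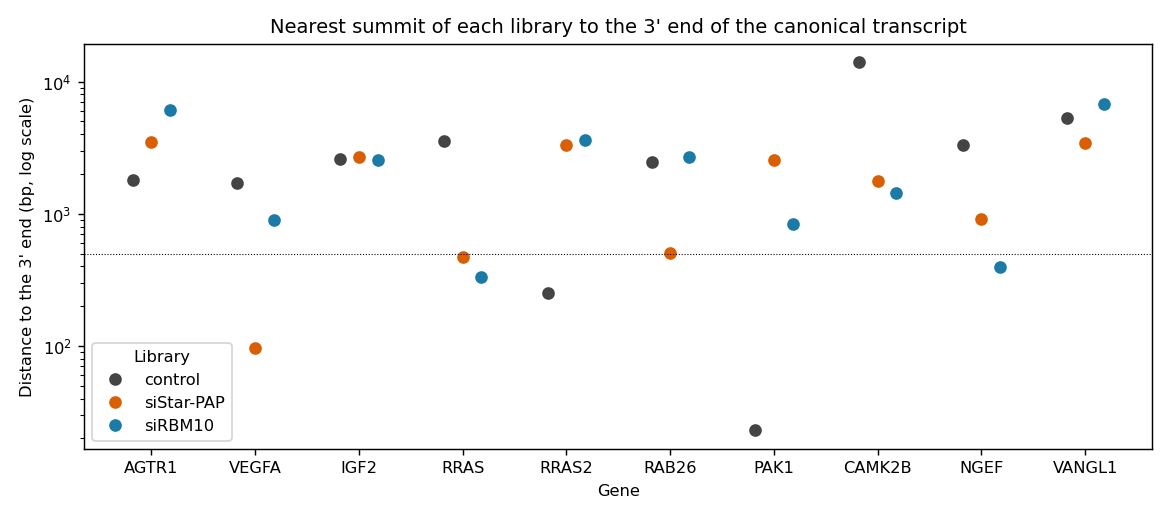
Points give, per gene and library, the distance in bp (log scale) from the 3′ end of the canonical transcript to the nearest summit; the dotted line is 500 bp. Each library has 2 genes below the line, with RRAS the only gene below it in more than 1 library.

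ATA was present in the 29-base window of 2 of 6 control summits in exons of coding transcripts (RRAS2 and PAK1), 1 of 10 in siStar-PAP (VANGL1) and 0 of 13 in siRBM10. Over all exonic summits the shares were 28.1%, 16.1% and 16.3%. That set is unlike the first: it also takes exons of transcripts not annotated as protein-coding. It leaves out summits where exons of protein-coding genes on both strands overlap. The mean GC content of the windows was 46.0%, 54.5% and 56.8% on the 10 genes, and 45.9%, 53.6% and 53.3% over all exonic summits. The control mean was the lowest in both, and single windows of the 10 genes ran from 20.7% to 86.2%.

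Another 85 genes of the same pathways were counted in the same way. An exonic summit was found in 40 of them (47.1%) in the control, 63 (74.1%) in siStar-PAP and 59 (69.4%) in siRBM10. An exonic control summit without an exonic siStar-PAP summit was found in 9 of the 85, against 11.4% of all protein-coding genes, and without an exonic siRBM10 summit in 11, against 12.4%. The shares of all genes with an exonic summit, for this and each list that follows, were 35.4% in the control, 58.3% in siStar-PAP and 55.8% in siRBM10. In the insulin-like growth factor system, to which IGF2 belongs, 2 of 11 genes had an exonic summit in the control and 8 in each depletion library, with IGF2R, the receptor that clears IGF2, and IGFBP3 holding one in all 3. Among planar cell polarity genes, the pathway of VANGL1, 9 of 13 had one in the control, 12 in siStar-PAP and 10 in siRBM10, and VANGL2, the close relative of VANGL1, was among the 8 with all 3.

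The other p21-activated kinases had an exonic summit in 2 of 5 genes in the control, 5 in siStar-PAP and 4 in siRBM10, and PAK3 had one in all 3 libraries. RAS family GTPases had one in 6, 9 and 5 of 11. Counted over gene and flanks, siRBM10 had fewer summits than the control in 8 of these 11. Over the 85 genes of all lists it had fewer in 34 and more in 49. VEGF ligands and receptors had one in 4, 3 and 6 of 9, with the co-receptors NRP1 and NRP2 in all 3 and VEGFD and KDR, the main VEGF receptor of endothelium, in none. Of the angiotensin system 4, 6 and 6 of 8 genes had one, of calmodulin and its kinases 4, 8 and 7 of 10, of RAB GTPases of secretion 5, 6 and 7 of 10, and of exchange factors and Eph receptors related to NGEF 4, 6 and 6 of 8.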

How the data were processed

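HITS-CLIP libraries of Star-PAP from control, siStar-PAP and siRBM10 cells and an IgG library were made by the authors, 1 per condition. According to the study's methods and the submitters' notes, reads were filtered with the CLIP Tool Kit, trimmed with cutadapt 1.14, checked with FastQC 0.72, mapped to hg19 with BWA 0.7.12, kept when unique and at least 18 nt, and called per library with MACS2 against IgG at p of 0.05. The deposited lists hold 1-bp summits with the −log10 p-value, and no strand, width or tag number, so depth is unknown. Uniquely mapped reads limit what can be seen in repeats.

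Summits were placed on GENCODE release 44 lifted to the hg19 assembly (Python 3.11.15, pandas 2.3.3, scipy 1.17.1). A summit in several classes was given CDS, then 3′-UTR, 5′-UTR, other exon and intron, without regard to strand. Counts carry exact Poisson, shares exact Clopper-Pearson and ratios exact conditional intervals. The counting steps were tested on simulated data. Genes named were the 10 chosen, with all their exonic summits, the genes overlapping their windows, and some of the pathway genes with an exonic summit in all libraries or none. The members and lists were chosen with earlier results of these data known. The alternatives were other score limits, distances, exon definitions and flanks.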

Additional observations from a re-analysis of the deposited data

How the results depend on the processing

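Of 60 alternative values 35 stayed close to those reported, 24 moved and 1 changed sign. With p of at most 0.01 the windows held 47 control and 98 siStar-PAP summits, and above the commonest score of each list they held 50, 22 and 17. Above the commonest score the order of the libraries turned, since the control was then the highest. The p limit removes the commonest score from the control list alone. Genes with an exonic summit fell to 3 in the control and 3 in siRBM10 with exons of the longest coding transcript only, and to 3 in siStar-PAP above the commonest score. With summits anywhere in the gene they were 9 in the control and 10 in siRBM10, and no gene (0) had a control summit without one of either depletion library. Genes with an exonic control summit and none after depletion fell from 2 to 1 for each depletion at p of at most 0.01. The share of control summits near a siStar-PAP summit was 5.26% within 100 bp, 32.6% within 1000 bp, 0% at the same position and 8% above the commonest score. Near a siRBM10 summit it was 4.21% within 100 bp, 1.05% at the same position and 2% above the commonest score. The correlation of GC content with the ratio, an alternative chosen after seeing the data, was -0.07 for siStar-PAP and 0.35 for siRBM10 at p of at most 0.01, and 0.53 and 0.20 above the commonest score. Exons of protein-coding transcripts only, also added after seeing the data because transcripts of other types cover introns of VEGFA, left the counts of genes within 1.5 times those reported. No paired analysis was possible because each condition was 1 library.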
